A study of Drosophila melanogaster with 24 samples.

Results

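A total of 21 genes of Drosophila melanogaster, listed under a CG number in the platform annotation, had much less RNA at every later stage of the life cycle than in 0-4 h embryos. They were selected on measured values, by the log2 ratio of each stage to RNA of 0-4 h embryos. A probe was kept when its platform symbol was CG followed by digits, its mean log2 ratio at 4-8 h was at most -1, and its mean at each of the other 7 stages was at most -2. Of 5768 probes with such a symbol, for 5167 genes, 21 met these limits, each for a different gene, in a table of 23808 probes. The genes were CG14915, CG6885, CG8173, CG18190, CG15382, CG3679, CG4991, CG7840, CG4880, CG15876, CG9705, CG6927, CG7744, CG1943, CG12129, CG6425, CG5199, CG9062, CG18586, CG1863 and CG14545, in order of their mean over the stages, lowest first. Since these ratios chose the genes, they are given below as a description and without a test.

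The study followed total RNA through the fly's life cycle on 2-colour spotted arrays. Sampled were embryos aged 4-8 h, 8-12 h or 12-16 h, larvae pooled over their stages, pupal stages 1, 2 and 3, and young adult flies of both sexes. All were whole animals, and the labels used here name no strain. RNA of 0-4 h embryos was the reference on every array, and whether a single preparation served them all is not stated. Each stage had 3 arrays, named a, b and c, except pupal stage 1 with 2, because its array c held a signal of 1 channel and no ratio. The arrays are described as independent experiments, with no statement on separate cultures of flies, and a p-value here reflects only how far these arrays differ, which may be technical.

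In the fly, the mother loads the egg with RNA that directs the first divisions while the embryo's own genome is almost silent. This RNA is then destroyed, first by proteins made from the maternal store, such as the RNA-binding protein Smaug, which recruits a deadenylase, and later also by products of the embryo's genes. In the same interval the zygotic genome is switched on, and some of its first transcripts, such as those of slam and halo, are themselves short-lived. The 0-4 h reference holds RNA of both kinds, and which of them a gene's RNA was cannot be told apart here. In whole animals, fewer cells that hold an RNA and less RNA per cell cannot be told apart either. A ratio also says only that the RNA was lower than in the reference, relative to the median probe of the array, and not that it was gone.

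On the 23 arrays with ratios, all 483 values of the 21 genes lay below 0, and 422 of them were at or below -2. By comparison, between 1.15% and 13.0% of all probes on an array were at or below -2. All 21 genes were measured on every array. CG14915, CG6885 and CG3679 were at or below -2 on all 23 arrays, and the other genes on 16 to 22. Duplicate spots of the 21 probes differed by a median of 0.46 on the log2 scale, against 0.51 over all probes.

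**Figure D1:**
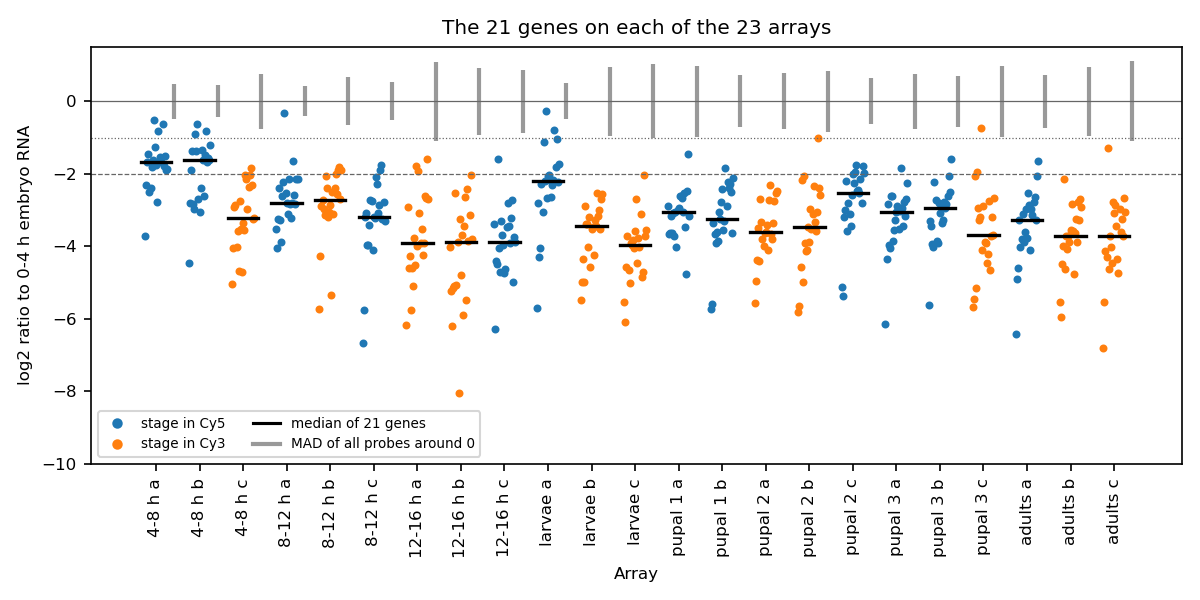
Each point is the log2 ratio of a stage to 0-4 h embryo RNA for 1 of the 21 genes on 1 of the 23 arrays, coloured by the dye of the stage's RNA, with the genes' median as a black bar and the median absolute deviation of all probes as a grey bar around 0. All points lie below 0, and the medians of 4-8 h arrays a and b, at -1.69 and -1.62, are the highest.

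The lowest levels relative to the reference belonged to CG14915, a gene without a given name whose role is not stated in the sources used here. Its log2 ratio was -3.73, -4.47 and -5.04 on the 3 arrays of 4-8 h, and -6.44, -5.55 and -6.82 on the 3 arrays of adults. The mean over the 8 stage means was -5.22, which is 37.2-fold below the reference. CG14915 also had the lowest 4-8 h mean of the 21 genes, at -4.41 ± 0.66 (SD, n = 3). Its arrays agreed closely in larvae (-5.57 ± 0.11, SD, n = 3) and spread widely at 8-12 h (-5.31 ± 1.61, SD, n = 3).

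CG6885 followed, with a mean over the stages of -4.62, or 24.6-fold below the reference. Its arrays read -2.32, -2.81 and -4.06 at 4-8 h and -4.91, -5.95 and -5.53 in adults. All 3 adult arrays were lower than all 3 arrays of 4-8 h. The next in order were CG8173 (-3.69), CG18190 (-3.50), CG15382 (-3.43), CG3679 (-3.41), CG4991 (-3.30), CG7840 (-3.22), CG4880 (-3.20), CG15876 (-3.20), CG9705 (-3.19) and CG6927 (-3.11). The remaining 9 genes had means from -2.54 to -3.06.

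A role could be named for 6 of the 21 genes, mostly from the family of the encoded protein. CG18190 encodes a protein of the EB1 family, which in other organisms and in other fly genes tracks the growing ends of microtubules. Its means ran from -1.90 ± 0.84 (SD, n = 3) at 4-8 h to -4.64 ± 0.46 (SD, n = 3) at 12-16 h. CG4991 belongs to a family of proton-assisted amino acid transporters. Its arrays were far apart at 4-8 h, where a, b and c read -1.81, -0.90 and -4.69, and close at 12-16 h, where they read -5.08, -5.08 and -4.70. CG9705 encodes a cold-shock domain protein, a class that binds RNA, with means between -2.69 in pupal stage 1 and -4.51 at 12-16 h.

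CG6927 carries the synonym Lcch-4D in RefSeq and belongs to the Cys-loop family of ligand-gated ion channels. It differed from most of the set in being lowest at 8-12 h (-3.89 ± 1.27, SD, n = 3) and highest in adults (-2.74 ± 0.19, SD, n = 3), by plain stage means whose arrays overlapped at 8-12 h and 12-16 h. CG5199 carries the RefSeq synonym CUT8, the name of a fission yeast protein that holds proteasomes at the nucleus. It had the highest 4-8 h mean of the 21 genes, with -0.62, -0.82 and -2.02 on arrays a, b and c, and its later means lay between -2.02 at 8-12 h and -3.64 in pupal stage 3. CG9062 is the fly member of the WDR48 family, known in human cells as a partner that activates deubiquitinating enzymes. Its 4-8 h arrays read -1.78, -1.66 and -1.85, the tightest agreement of the 21 genes at that stage (SD 0.095).

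**Figure D2:**
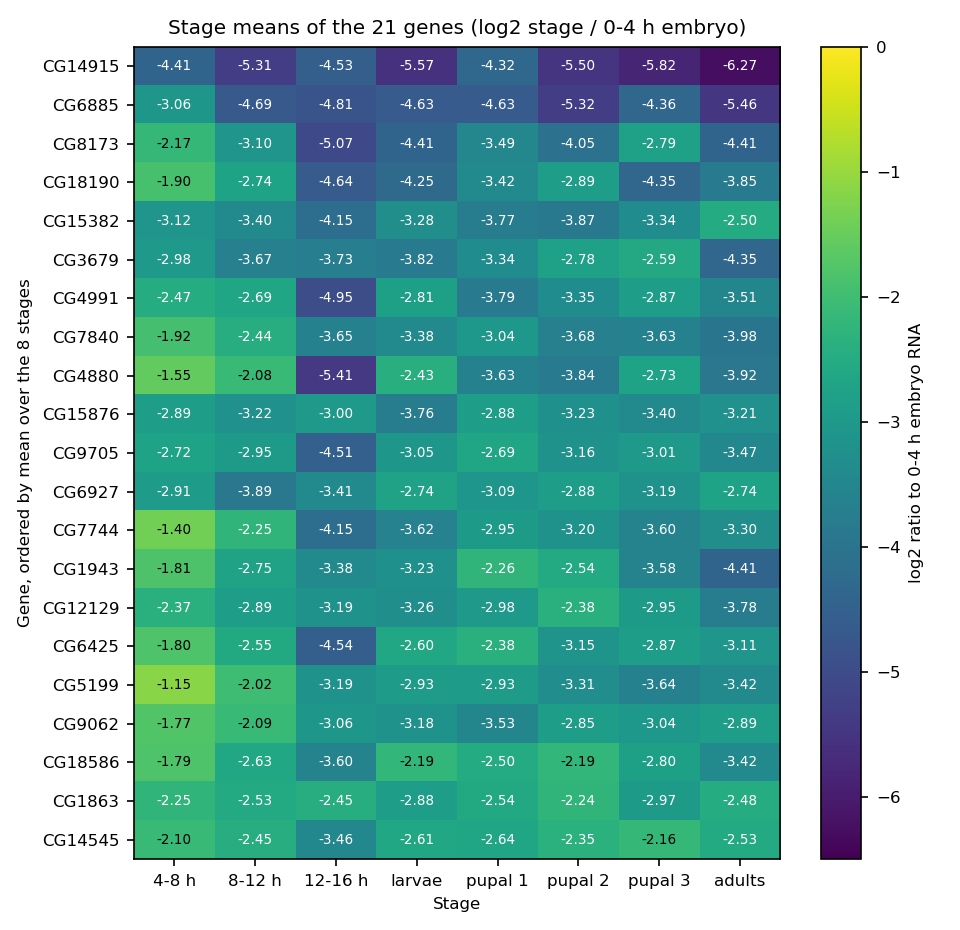
Rows are the 21 genes, ordered by their mean over the stages, columns are the 8 stages, and each cell holds the mean log2 ratio to 0-4 h embryo RNA over the 3 arrays of a stage (2 for pupal stage 1). CG14915 is at -4.41 already at 4-8 h, while CG5199 is at -1.15 there and at or below -2.02 at all later stages.

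The median of the 21 genes was -2.17 at 4-8 h, -2.74 at 8-12 h and -3.73 at 12-16 h. It was -3.23 in larvae, -3.04, -3.16 and -3.04 in pupal stages 1, 2 and 3, and -3.47 in adults. The medians over all probes lay between -0.06 and 0.09 at these stages. The limit of the rule was lower after 4-8 h, so the step from 4-8 h to the later stages was in part set by the choice of genes. The mean over the 7 later stages was below the 4-8 h mean for all 21 genes, by a median difference of -0.97.

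That step rested on 2 of the 3 arrays of 4-8 h. The median of the 21 genes was -1.69 on array a and -1.62 on array b, both with the stage in Cy5, but -3.22 on array c, with the stage in Cy3. On array c, 20 of the 21 genes were at or below -2, whereas 7 were so by the mean of arrays a and b. Compared with array c alone, the later stages were lower by a median of only -0.29, and 12 of 21 genes had a 4-8 h value above their later mean. Arrays a and b also had narrower ratios over all probes, with an SD of 0.95 and 0.82 against 1.17 on array c, and the part of dye and of this spread in the step was not tested.

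Among the 7 later stages, the genes' stage means spanned between 0.73 (CG1863) and 3.33 (CG4880) on the log2 scale, with a median of 1.66, close to the 1.72 of all probes. The lowest of these stages was 12-16 h for 10 genes and adults for 6, and the highest was 8-12 h for 7 genes. Differences among these stages were tested per probe with limma over the whole table, adjusted over 23808 probes. The tests read the same arrays as the rule, which held each of these stage means to the same limit, so a gene near the limit at a stage could only be lower at the others. Counts and medians of differences over the 21 genes are therefore a description and support nothing. A moderated F-test over the 7 stages passed for 4 of the 21 genes, against 19.1% of all probes, a share near the background. These were CG1943 (limma adjusted p = 0.0148), CG18190 (0.0355), CG6425 (0.0364) and CG8173 (0.0436).

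CG1943 had the F-test call that held for the most left-out arrays, and it was lowest in adults. Its 3 adult arrays read -4.11, -4.76 and -4.36, and the 2 arrays of pupal stage 1 read -2.67 and -1.84. Both arrays of pupal stage 1 carried the stage in Cy5, but 2 of the 3 adult arrays carried it in Cy3. A dye effect was called for this gene. Fitted with the dye term, it was at -4.28 in adults, -2.66 in pupal stage 1 and -2.40 in pupal stage 2. All adult values lay below all values of 8-12 h, 12-16 h, larvae, pupal stage 1 and pupal stage 2, but not below the third array of pupal stage 3, which read -4.46 beside -3.02 and -3.27. The call was kept on leaving out any of 22 arrays and ended without array a of adults (limma adjusted p = 0.057). It also ended with uncentred values (limma adjusted p = 0.889), without the dye term (0.0732), with arrays scaled to the same spread (0.0849), with pupal arrays averaged (0.0536), and without the arrays a, b or c of all stages (0.258, 0.223 and 0.156). The calls of CG18190, CG6425 and CG8173 were kept in 15, 16 and 7 of 23 such fits, so they ended on the loss of many of the arrays.

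**Figure D3:**
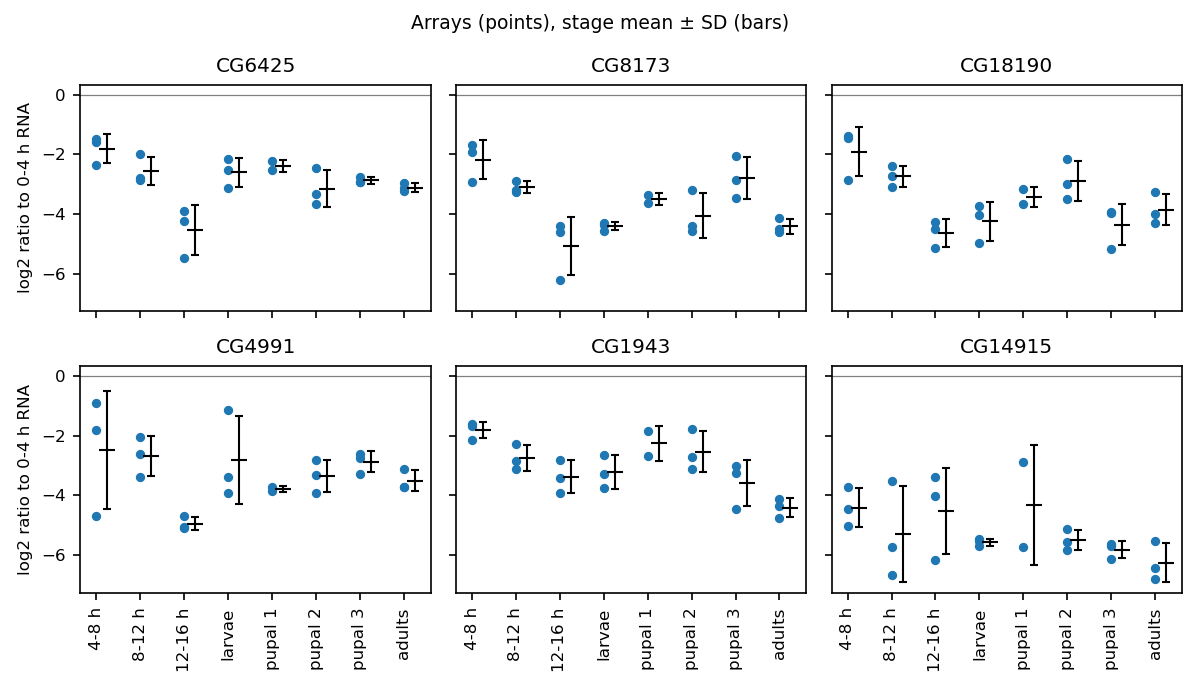
For 6 genes with a passing test or the lowest level, points are arrays and bars the stage mean ± SD of the log2 ratio to 0-4 h embryo RNA, over 3 arrays a stage and 2 for pupal stage 1. CG6425, CG8173, CG18190 and CG4991 are lowest at 12-16 h, and CG1943 and CG14915 in adults.

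From 8-12 h to 12-16 h, 3 genes fell and none rose at an adjusted p under 0.05, where 1.13% of all probes fell and 3.98% rose. CG6425 read -2.80, -1.998 and -2.86 at 8-12 h and -4.23, -5.49 and -3.91 at 12-16 h, with no overlap. Its fitted difference was -1.87 ± 0.45 (SE; limma adjusted p = 0.0182). CG8173 read -3.25, -2.88 and -3.19 and then -4.61, -6.21 and -4.41, again with no overlap and with a fitted difference of -1.88 ± 0.52 (SE; limma adjusted p = 0.0383). CG18190 read -2.39, -2.73 and -3.09 and then -4.27, -5.15 and -4.50, with a fitted difference of -1.72 ± 0.49 (SE; limma adjusted p = 0.0464). In all, 16 of the 21 differences were negative, beside 48.1% of all probes, with a median of -0.75 beside 0.05, and 8 had an unadjusted p under 0.05, beside 19.6% of all probes. These genes had been chosen for low means at both stages, so nothing is read from these counts. The largest difference in size, -2.92 ± 1.05 (SE) for CG4880, did not pass (limma adjusted p = 0.117), and its 3 arrays at 12-16 h ranged from -8.05 to -3.69.

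The fall at 12-16 h moved with the spread of the arrays. The SD over all probes was 1.58 to 1.78 on the 12-16 h arrays and 0.86 to 1.23 on the 8-12 h arrays. When every array was scaled to the same spread, a setting added after seeing the data, the differences of CG6425, CG8173 and CG18190 became -0.01, 0.19 and 0.02 and none passed. In that setting the median of the 21 genes was lowest at 8-12 h, at -4.08, against -2.995 at 12-16 h, 1 gene was lowest at 12-16 h, and the gene that passed was CG6927, with a rise of 2.62 ± 0.60 (SE; limma adjusted p = 0.025). Which of the 2 embryonic stages was lower thus depended on whether arrays kept their own spread. On leaving out each of the 6 arrays in turn, CG6425 passed in 4 fits and CG8173 and CG18190 in 2 each, and without 8-12 h b or 12-16 h b no gene passed.

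From 12-16 h to larvae, 2 genes rose and none fell, where 2.63% of all probes rose and 7.6% fell. CG6425 returned from the 12-16 h values above to -2.16, -2.54 and -3.12 in larvae, without overlap, a difference of 1.94 ± 0.45 (SE; limma adjusted p = 0.00884). This call was kept without any 1 of the 6 arrays, with adjusted p between 0.00736 and 0.041. It ended with the arrays scaled to the same spread, where the difference was 1.09 ± 0.56 (SE; limma adjusted p = 0.272). It also ended with uncentred values (limma adjusted p = 0.14), without the 4 arrays of narrow spread (0.0688), with only duplicate spots that lay close (0.0938), with only the arrays of both stages (0.339), and without the arrays a or b of all stages (0.116 and 0.161). CG4991 rose by 2.14 ± 0.64 (SE; limma adjusted p = 0.037), but its larval arrays were far apart, since larvae a, b and c read -1.13, -3.40 and -3.91. Without larvae a its call ended, as it did without 12-16 h b, 12-16 h c or larvae b, while the difference stayed between 1.57 and 2.53. The call of CG4991 also ended with uncentred values (limma adjusted p = 0.154), without the dye term (0.0918) and without the 4 arrays of narrow spread (0.124). It ended too with scaled arrays (limma adjusted p = 0.231), with pupal arrays averaged (0.0602), with only the arrays of both stages (0.328), and without the arrays a, b or c of all stages (0.345, 0.109 and 0.0799). Over the 21 genes the median difference was 0.39, beside -0.15 over all probes, and 5 had an unadjusted p under 0.05, beside 26.2% of all probes, a share near the background.

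**Figure D4:**
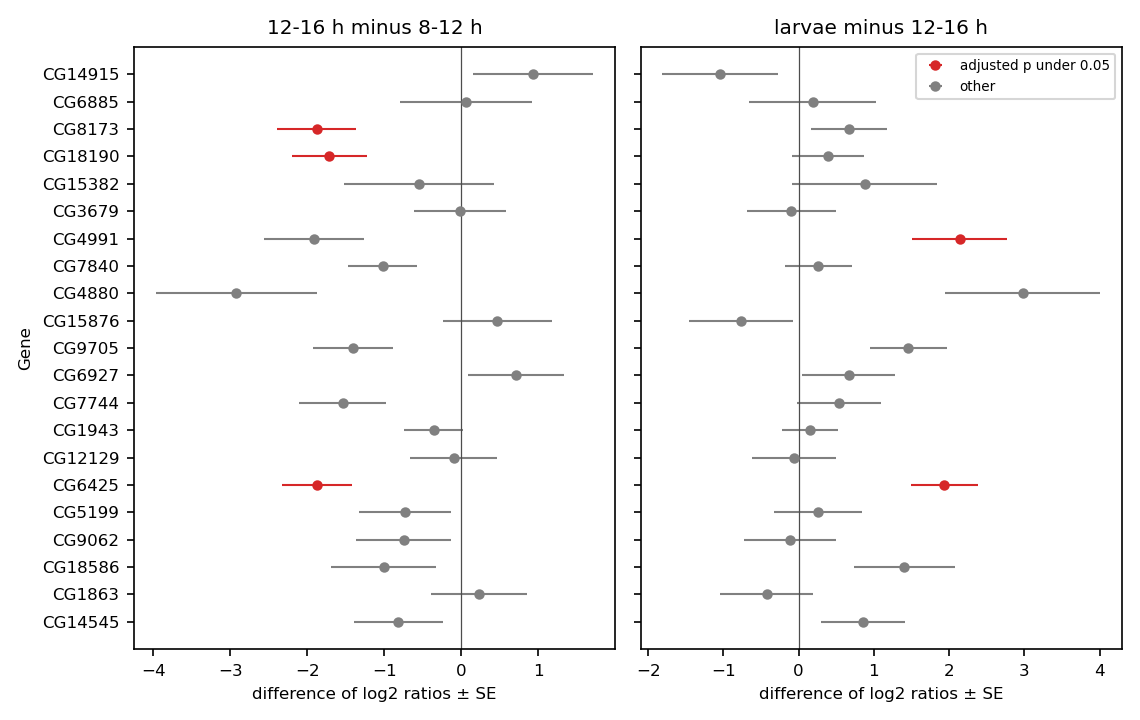
Points are the limma differences of log2 ratios with their SE, for 12-16 h minus 8-12 h on the left and larvae minus 12-16 h on the right, for the 21 genes in the order of their mean level. Red marks an adjusted p under 0.05, which holds for CG8173, CG18190 and CG6425 on the left, all negative, and for CG4991 and CG6425 on the right, both positive.

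No change was detected in the 21 genes at the later steps tested. Between larvae and pupal stage 2, 0 of 21 passed in limma and 1 had an unadjusted p under 0.05, beside 12.2% of all probes, with a smallest adjusted p of 0.198, where 1.31% of all probes rose and 0.718% fell. That gene was CG18190, at 1.36 ± 0.48 (SE). Between pupal stage 3 and adults, 0 of 21 passed in limma and 2 had an unadjusted p under 0.05, beside 12.9% of all probes, with a smallest adjusted p of 0.178, where 1.1% of all probes rose and 0.0882% fell. These were CG8173 at -1.54 ± 0.52 (SE) and CG3679 at -1.72 ± 0.60 (SE). The median SE of these differences was 0.59 and 0.60.

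Adult females carry ovaries, where maternal RNA is made, so the adult values were read beside a list made mostly of genes of egg formation. This list was not a measure of how much ovary the adults held. It had 15 probes for 14 genes, all of yolk proteins, vitelline membrane or eggshell except fit. Of these probes, 7 were higher in adults than in the reference and none lower, where 15.2% of all probes were higher. Their median was 0.80 against 0.06 over all probes, and fit, at a fitted 0.43, did not pass. Between pupal stage 3 and adults 3 of these probes rose, for the yolk protein genes Yp2 (5.97 ± 0.46 and 5.84 ± 0.60, SE, limma adjusted p = 9.16e-07 and 4.94e-05) and Yp3 (3.57 ± 0.46, SE, limma adjusted p = 0.000438). No vitelline membrane or eggshell probe passed at this step, where Cp38 had the smallest value among them (limma adjusted p = 0.1). Yolk protein probes were also high in pupal stage 2, at 3.714 for Yp1, 4.356 and 3.002 for Yp2 and 1.766 for Yp3. In pupal stage 3 these probes read -0.176, 0.275, -0.273 and 0.262. The cause of this course was not tested. From pupal stage 3 to adults the 21 CG genes had a median difference of -0.17, 8 with a positive and 13 with a negative sign, against a median of 0.12 over all probes. In adults the highest of them was CG1863, at -2.48 ± 0.36 (SD, n = 3).

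The same limits were met by 75 of 7687 probes with another gene symbol, or 0.976%, against 0.364% of the probes with a CG symbol. The stage medians of these 75 were -1.99 at 4-8 h, -3.79 at 12-16 h and -3.66 in adults, beside -2.17, -3.73 and -3.47 for the 21 CG genes. Lowest among them were Z600 (mean over the stages -5.72), an early zygotic inhibitor of mitosis, and dhd (-5.15), a maternal thioredoxin, and CG14915 at -5.22 lay between these. halo, an early zygotic gene for lipid droplet transport, was at -4.96. No test was made between these sets, since the same ratios chose both.

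Genes of a maternal list, which act in egg formation or from the mother in the early embryo, were read by the same measure. The list was not limited to genes whose RNA is known to be loaded into the egg. Some passed as lower and others did not. Of 59 probes for 52 maternal genes, 31 were lower at 4-8 h and 0 higher, where 5.94% of all probes were lower and 1.49% higher, and their median was -1.09 against 0.02 over all probes. At 12-16 h 30 were lower and 2 higher, where 12.5% of all probes were lower and 16.8% higher, and in adults 38 were lower and 3 higher, where 19.2% and 15.2% were. Of these probes 15 met the limits that chose the CG genes, beside 104 of all 23808 probes. Among the 15 were osk, which directs assembly of the germ plasm, with a mean of -2.87 at 4-8 h and -6.04 at 12-16 h, and piwi, of the piRNA pathway, with -3.16 and -4.61.

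Genes of an early zygotic list were counted in the same way. This list was not limited to genes without maternal RNA, and it held Ance, which was at 2.01 at 4-8 h. Of its 44 probes for 36 genes, 12 were lower and 1 higher at 4-8 h, where 5.94% and 1.49% of all probes were. At 12-16 h 19 were lower and 1 higher, where 12.5% and 16.8% of all probes were, and in adults 34 were lower and 0 higher, where 19.2% and 15.2% were. Their medians were -0.77, -0.78 and -1.83, beside 0.02, 0.08 and 0.06 over all probes. The 7 that met the limits, beside 104 of all 23808 probes, were Z600, halo, slam, Sry-alpha, bnk, hb and spo. Sry-alpha had a second probe that did not meet them, at -0.67 at 4-8 h and -1.01 in adults. slam, which is needed for the membranes of the first cells, was at -1.74 at 4-8 h and -6.42 at 12-16 h. No test of the difference between the maternal and the early zygotic list was made.

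A list for RNA clearance held genes that remove RNA together with genes of egg activation and translational repression. It was thus not limited to enzymes that remove RNA. Some of its genes were lower than in the reference and others did not pass. Of 23 probes for 17 genes, 9 of which are in the maternal list as well, 11 were lower at 4-8 h, 14 at 12-16 h and 19 in adults, and 0 were higher. The lower shares of all probes at these stages were 5.94%, 12.5% and 19.2%. The list had medians of -0.99, -1.21 and -1.99, beside 0.02, 0.08 and 0.06 over all probes. Among those that did not pass at 4-8 h were png (-0.48), a kinase of egg activation, and pcm (-0.06), an RNA exonuclease, as fitted values. smg, which encodes Smaug, read -3.59 at 4-8 h and -4.95 in adults as stage means. me31B, a helicase of translational repression, read -3.34 and -4.28, and cup, a translational repressor, -2.91 and -3.10. Pop2 and Not1, of the deadenylase complex, were at -0.72 and -1.30 at 4-8 h and did not meet the limits.

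Each of the 21 genes had a single probe, so no other probe could check it within the array. To read genes on arrays that had not chosen them, the rule was applied without the arrays of a replicate letter. The genes found, which were not the same set as the 21, were then read on the arrays left out. Without the arrays a, 26 genes were chosen, 17 of them among the 21. Of the 26, 22 were below 0 on the left-out array of every stage and 8 met every limit there, with a median of -2.81. Without b, 17 were chosen, all among the 21, and 17 were below 0 at every stage and 12 met every limit, with a median of -3.29. Without c, 18 were chosen, 16 of them among the 21. Of the 18, 17 were below 0 at the 7 stages that have a ratio array c and 12 met every limit, with a median of -3.51. The median over all probes was between -0.07 and 0.07 on each of these arrays.

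Just inside the limits were CG5199 and CG4880, with -2.02 and -2.08 at 8-12 h, CG9062 with -2.09 at 8-12 h and CG14545 with -2.16 in pupal stage 3. Just outside were CG11307, at -1.99 in pupal stage 2, CG11674, at -1.97 in pupal stage 3, and CG11263 and CG17359, at -1.96 and -1.95 at 8-12 h. CG11674 fell outside through 1 array, since pupal stage 3 read -3.28, -3.33 and 0.69. CG4880 was inside although 8-12 h a and larvae a read -0.32 and -0.28, because the other arrays of these stages were at or below -2.74. Leaving out any 1 array changed the number of genes to between 19 and 24, and those lost were among CG4880, CG5199, CG9062, CG18586, CG1863, CG1943, CG14545 and CG15382.

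In the RefSeq gene table (assembly Release 6), 20 of the 21 genes were matched by gene identifier and CG1863 was not. No 2 of them lay within 20 kb of each other. Their neighbours on either side and the genes overlapping them had 44 probes, of which 0 met the limits, with a median over the 7 later stages of -0.29. The lowest of these were Ref1 (-2.49), which overlaps CG1943, par-6 (-2.39), next to CG8173, and CG13713 (-1.90), next to CG15876. Ref1, an RNA export factor, had a second probe at -0.31.

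Of the 20 placed genes, 12 overlap another gene and 10 overlap a gene with a probe on the array, so shared signal at those probes was possible and was not tested. The overlapping genes' 13 probes ranged from -2.49 for Ref1 to 0.92 for CG5910, which overlaps CG5199. At 12-16 h CG5910 was at 2.54 and CG5199 at -3.19. CG9062 overlaps Vhl, a tumour suppressor homologue, whose probe had a mean of -0.93 over the 7 later stages against -2.95 for CG9062.

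Stage labels were set beside 15 marker genes, of which 4 are given here, chosen after their values were seen. The larval serum protein gene Lsp2 was at 7.16 and 7.04 in larvae by its 2 probes, the cuticle gene Cpr51A at 7.13 at 12-16 h, and the flight muscle gene fln at 7.30 in adults. Mst57Da, a male accessory gland gene, was at 1.24 in adults. None of these genes singled out the stage named. Cpr51A was also at 4.95 in pupal stage 1, and fln at 6.255 in pupal stage 3. Lsp2 was at 7.66 and 7.77 in pupal stage 1 and at 4.8 and 6.0 in adults, and Mst57Da was at 1.475 in pupal stage 1. A probe-specific dye effect was called for 3 of the 21 genes, CG1943, CG5199 and CG7744, beside 15.3% of all probes, and the fitted differences above hold it as a term.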

How the data were processed

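Per the labels' protocols, 20 µg of total RNA was labelled indirectly, and slides were hybridized at 55 °C for 16 h, imaged with ScanArray 3.1 and measured with GenePix 4.0. Slides were retained by how well duplicate spots agreed. Steps for background and normalization, if any, remain not given in the sources used here. Log2 ratios of Cy5 over Cy3 were deposited by the authors for 47616 spots, with scale and direction read from the values and array medians from -1.89 to 2.38.

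The sign was turned on arrays that carried the stage in Cy3, since all 132 pairs of opposite dye correlated below 0 before this and 0 after. Values at the scale limits (633, or 0.0578%) were dropped, arrays were median-centred, and spots 1984 rows apart were averaged. Array c of pupal stage 1 was left out. Differences were fitted with limma 3.58.1 (R 4.3.3), using stage coefficients and a dye term per probe over 23 arrays, with Benjamini-Hochberg adjustment over 23808 probes, two-sided, at 0.05. The fit was tested on simulated data. Signal over background is unknown, as only ratios were used, and precision is limited by the number of arrays.

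The members, gene lists and tests were chosen with earlier results of these data known. Named genes are the 12 lowest by mean over the stages, 4 on each side of the limits, those that passed a test and the 6 with the widest later range. Genes of known role, list members and overlapping genes were named after their values were seen. Promoter motifs, protein patterns and chromosome arms were planned and were not analysed here. Alternatives covered centring, scaling, the dye term, thresholds, duplicate spots, scale limits, the spread estimate and left-out arrays.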

Additional observations from a re-analysis of the deposited data

How the results depend on the processing

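The number of CG genes that met the limits, 21, became 48 with uncentred values (18 of the 21 among them), 71 and 9 with limits 0.5 higher and lower, 12 with a limit of -2 at all 8 stages, 16 with only duplicate spots that lay close (10 of the 21 among them), and 32 without 4-8 h a and b, 8-12 h a and larvae a, which stand apart by a narrow spread. It was 34 with every array scaled to the same spread, and between 17 and 26 on leaving out a replicate letter or an array. The count of 4 genes differing among the 7 later stages became 0 with uncentred values, 2 without the dye term, 1 without the 4 arrays that stand apart, 0 with pupal arrays a and b of stages 2 and 3 averaged, 2 with scaled arrays (CG3679 and CG6927, none of the 4), and 0 to 5 with a letter or array left out. The count of 3 genes that fell from 8-12 h to 12-16 h became 0 uncentred, 1 without the arrays that stand apart (CG4991, none of the 3), 1 with the pupal arrays averaged (CG6425), 0 with only the arrays of both stages, and 0 to 4 with a letter or array left out. With scaled arrays the direction turned, with 1 gene, CG6927, which rose. With values at the scale limits kept, both calls of CG8173 ended (limma adjusted p = 0.0875 in the F-test and 0.104 for the fall). The counts were then 3 genes differing among the 7 later stages and 2 that fell. The count of 2 that rose in larvae became 0 uncentred, 1 without the dye term, 0 without the arrays that stand apart, 1 with the pupal arrays averaged, 0 with scaled arrays, 0 with only the arrays of both stages, and 0 to 4 with a letter or array left out. Larvae against pupal stage 2 and pupal stage 3 against adults gave 0 in every setting run. Letters did not pair the arrays (median r of residuals 0.0037 over 77 pairs with the same letter, 11 of them over 0.1), and with the letter as a replicate block 2 genes differed among the 7 stages. The scaled setting and the single left-out arrays were added after seeing the data. The cause of these changes was not tested. With 2 or 3 arrays a stage, the stage differences of the 21 genes had a median SE of 0.59 to 0.60, which limits what could be detected.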

Other observations

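Array c of pupal stage 1, which held a signal of 1 channel that the labels do not tie to the pupal or to the reference RNA, was read for the 21 genes as well. Their median signal was 8.56 on the log2 scale, against 8.72 over all probes. The genes' percentiles among all probes ran from 4.8 to 92.2, with a median of 28.6, and 7 of the 21 lay above the middle of the probes. The largest absolute correlation of this array with a ratio array across probes was 0.102.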
